A study of Mus musculus with 15 samples.

Results

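The cytosolic ribosomal protein genes were taken by symbol, as Rpl or Rps followed by a number and, in some, a final a, x or l, together with Rplp0, Rplp1, Rplp2 and Rpsa. In the CD4+ T-cell arrays the rule found 46 genes on 100 of 45101 probe sets, out of 18194 genes that have a probe set of their own. In the thymocyte arrays it found 45 genes on 96 of 22690 probe sets, the difference being Rps16. Members were taken only from probe sets that the platform annotation pairs with 1 gene. A further 110 probe sets of the CD4+ T-cell arrays and 102 of the thymocyte arrays pair a ribosomal protein gene with other genes, and these were kept apart and are given without names. In the CD4+ T-cell arrays 28 symbols that fit the rule occurred only there, and in the thymocyte arrays 27. Rplp1 had no probe set of its own on either array.

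A cytosolic ribosome consists of a small subunit, which holds and reads the mRNA, and a large subunit, which joins the amino acids and carries a stalk that recruits the GTPases of translation. Each subunit is an rRNA scaffold covered by ribosomal proteins, which cells make in matched amounts. Their mRNAs are among the most abundant of any cell, and most begin with a run of C and T (the 5′ terminal oligopyrimidine, or TOP, motif), through which mTOR signaling sets how well they are translated. T-cells that are activated through their receptor grow and make ribosomes before they divide. An array measures the amount of these mRNAs and not their translation.

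Of the 46 genes, 22 encode proteins of the large subunit, namely Rpl3l, Rpl4, Rpl6, Rpl7, Rpl7a, Rpl8, Rpl10a, Rpl11, Rpl12, Rpl13a, Rpl14, Rpl19, Rpl22, Rpl27, Rpl27a, Rpl35, Rpl37, Rpl37a, Rpl38, Rpl39, Rpl39l and Rpl41. Another 22 belong to the small subunit, namely Rps2, Rps3, Rps4l, Rps4x, Rps6, Rps7, Rps9, Rps10, Rps14, Rps15, Rps16, Rps18, Rps19, Rps20, Rps24, Rps25, Rps26, Rps27, Rps27l, Rps28, Rps29 and Rpsa. The remaining 2 genes, Rplp0 and Rplp2, encode stalk proteins. Rpl3l, Rpl39l, Rps4l and Rps27l are paralogs of other ribosomal protein genes. There were 23 genes with 1 probe set and 23 with several, up to 6 in Rpl35, Rps10, Rps18 and Rps24.

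The mice were of the 129/SJ strain. Splenic CD4+ T-cells, sorted by flow cytometry from N-ras KO mice and from WT littermates, were kept overnight without a stimulus or with 1 µg/ml each of antibodies to CD3e and CD28, a low-level stimulus of the T-cell receptor (TCR). Each of these 4 groups has 3 arrays, numbered 1 to 3, and each array has the RNA of 1 mouse. Thymocytes, which are T-cells still maturing in the thymus, were taken without a stimulus from mice lacking N-ras, mice lacking H-ras and WT mice, with 1 array for each genotype, so that their differences have no replicate check. The labels give an age of 6 to 20 weeks for the mice of both experiments, and the methods give 6 weeks for those of the thymocytes.

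The deposited values are log2 expression relative to a baseline, and the number of arrays limits their precision. On each of the 45101 probe sets the unstimulated CD4+ T-cell arrays of each genotype had a median of 0, and on each of the 22690 probe sets the 3 thymocyte arrays had a median of 0. Levels of different genes and the labelled cell type therefore could not be checked, and unstimulated WT and N-ras KO cells cannot be compared. The 3 Nras probe sets went against 2 labels. They read 0.80 to 2.09 in the arrays labelled N-ras KO 3 and -3.04 to -0.14 in those labelled WT 1, and results are therefore also given without these 4 arrays. In bulk samples fewer cells of a type and less RNA per cell cannot be told apart.

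The starts of some of these genes are shown because the C and T run is the sequence feature for which ribosomal protein genes are known, and the rule did not use it. RefSeq (GRCm38.p6) gave a promoter for 40 of the 46 genes, the first listed start being taken for each, and had no entry for Rpl7, Rpl8, Rps4l, Rps14, Rps20 or Rps29. A run of at least 7 C or T letters lay within 20 bases of the start, on the gene's own strand, in 24 of the 40 promoters (60%). Of all 27025 promoters 24.2% had one. Runs wholly upstream of the start were counted as well, and these would not be part of the mRNA. The other 16 of the 40 had none that near the listed start, and whether transcription begins at that base was not checked. The following 30-base windows cover 15 bases on each side of the start, 5′ to 3′ on the gene's strand, with their longest run of C and T in capitals. For Rps18, farthest apart refers to the arrays N-ras KO 3 and to the response in N-ras KO cells, not to WT.
Rpl35, a large subunit protein with 6 probe sets (chr2:39005117-39005146, minus strand): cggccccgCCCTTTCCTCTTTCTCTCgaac
Rps10, a small subunit protein with a nearly constant probe set (chr17:27635230-27635259, minus strand): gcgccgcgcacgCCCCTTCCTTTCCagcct
Rps18, whose probe sets lay farthest apart (chr17:33955651-33955680, minus strand): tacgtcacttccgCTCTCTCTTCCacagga
Rps27, parent of Rps27l (chr3:90213634-90213663, minus strand): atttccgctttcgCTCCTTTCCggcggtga
Rps27l, the paralog with the largest spread (chr9:66946071-66946100, plus strand): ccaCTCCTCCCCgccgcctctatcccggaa
Rpl37a, a large subunit protein named in a comparison (chr1:72711245-72711274, plus strand): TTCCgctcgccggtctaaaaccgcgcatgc
Rpl6, a large subunit protein far apart on single arrays (chr5:121204486-121204515, plus strand): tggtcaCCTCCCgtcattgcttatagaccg
Rps28, a small subunit protein of the same kind (chr17:33824548-33824577, minus strand): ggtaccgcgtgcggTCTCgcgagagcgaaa
Rpl3l, a paralog of Rpl3 used in striated muscle (chr17:24727811-24727840, plus strand): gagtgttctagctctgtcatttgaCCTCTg
In these windows the longest runs of Rpl35, Rps10, Rps18 and Rps27 reach 18, 13, 11 and 9 letters and span the start. That of Rps27l also has 9, but it lies wholly upstream of the start. Those of Rpl37a, Rpl6, Rps28 and Rpl3l have 4, 6, 4 and 5. Of the motifs searched on both strands over the 300 bases of each promoter, CCGGAAGT, the letters of an ETS factor site, was present in 10 of 40 (25%) against 4% of all promoters. AAGATGGC, the letters of a YY1 site, was present in 2 of 40 (5%) against 2.88%, and TATAAA in 4 of 40 (10%) against 14.2%. The reverse complement of CCGGAAGT holds a short stretch of C and T and can overlap a run. A match is a match of letters only.

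The first comparison asked whether WT CD4+ T-cells changed the mRNAs of ribosomal proteins in response to the TCR stimulus. No member passed an adjusted p of 0.05 in limma, and none did among all probe sets (0% of 45101). At an unadjusted p under 0.05, limma called 0 members and 520 of all probe sets (1.15%), and the methods' t-test called 0 members and 761 probe sets, none of them past the adjusted threshold. With 1.5-fold added, which are the thresholds of the study, 0 of 100 members were called against 1.04% of all probe sets. The median of the 46 genes, each taken as the median of its probe sets, was 0.04 log2, with 32 higher and 14 lower in stimulated cells. Over all 18194 genes the median was 0.01, and 52.2% were higher. The genes ranged from -0.29 for Rpl12, a protein at the base of the stalk, to 0.39 for Rps25, a small subunit protein used in some forms of internal initiation. In 46 of 100 probe sets the 95% interval of the difference lay within 1.5-fold on both sides of 0, against 13.8% of all probe sets, so that a larger response was outside the interval of these members.

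By pair, the member genes differed by a median of -0.02, 0.09 and 0.05 log2 in WT pairs 1, 2 and 3, with 18, 38 and 37 of 46 higher in the stimulated array. The middle of the genes lay between -0.09 and 0.07 in pair 1 (the quartiles), and between -0.23 and 0.20 for all genes of that pair. Over all genes the medians of the pairs were -0.02, 0.02 and 0.03. The large subunit had a median of 0.05 and the small subunit 0.04, with 15 of 22 genes higher in each. Both subunits thus shifted by less than the differences between pairs. Without the arrays WT 1 and N-ras KO 3, 87 of the 100 probe sets were higher and 13 lower, with a median of 0.07, against 73 and 27 with a median of 0.04 over all arrays, and 0 members were called.

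In N-ras KO cells the answer to the same question was also 0 of 100 members at an adjusted p of 0.05 in limma (0% of all probe sets). At an unadjusted p under 0.05 limma called 1 member and 1162 of all probe sets (2.58%), and the methods' t-test called 0 members and 857 probe sets. At the thresholds of the study 0 members were called against 2.34% of all probe sets. The median of the genes was -0.01 log2, with 19 higher and 27 lower, and 51.4% of all genes were higher. The pairs numbered 1, 2 and 3 had medians of -0.03, -0.02 and 0.03. By probe set the direction turned without the arrays WT 1 and N-ras KO 3, from 57 higher and 43 lower to 37 higher and 63 lower (median -0.03), with 0 members called. The interval lay within 1.5-fold for 47 of 100 probe sets, against 12.7% of all. With a block for the pairs, it did so for 74 of 100 in N-ras KO and for 74 of 100 in WT, against 32.1% and 34.9% of all probe sets. In that fit 2 members had an unadjusted p under 0.05 in N-ras KO (7.10% of all), Rpl3l and a probe set of Rps18, and 1 in WT (4.30%), 1436500_at of Rps24 at 0.39, which was under 1.5-fold, so that 0 were called in WT at the thresholds of the study (2.80%).

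**Figure D1:**
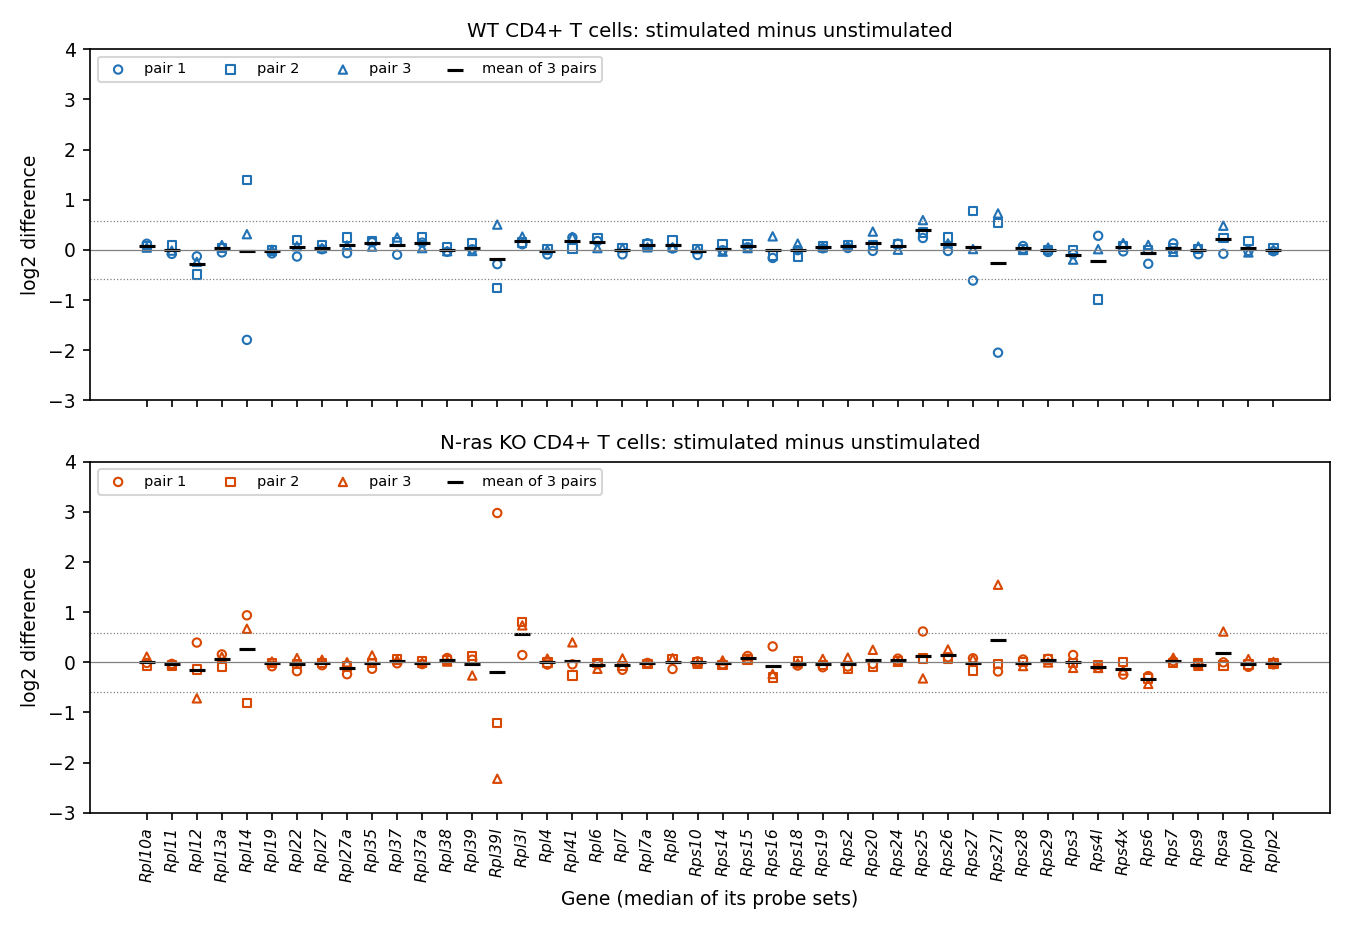
Stimulated minus unstimulated log2 difference of each of the 46 ribosomal protein genes (x axis) in the 3 pairs of each genotype (open symbols) and their mean (black bar), with dotted lines at 1.5-fold. In a pair 21 to 36 of the 46 genes lie within 0.1 of 0, while Rpl14, Rpl39l and Rps27l scatter widely in both directions.

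The member with an unadjusted p under 0.05 in N-ras KO cells was Rpl3l, the paralog of Rpl3. Its stimulated N-ras KO arrays read 0.14, 0.79 and 0.77 log2, and the unstimulated ones 0.00, -0.02 and 0.03. All 3 stimulated arrays lay above all 3 unstimulated ones, by a mean of 0.56 (standard error 0.20, unadjusted p = 0.0194, adjusted p = 1.00 in limma), which is 1.48-fold. In WT cells the stimulated arrays read 0.28, 0.13 and 0.27 and the unstimulated ones 0.17, -0.01 and 0.00, which overlap, and their difference was 0.17 (standard error 0.20). The difference of the 2 responses was -0.39, with a 95% interval from -1.02 to 0.25. Without the stimulated array N-ras KO 1, the response in N-ras KO cells was 0.77 and the difference of responses -0.60. Both were then past the thresholds of the study, at which that fit called 2.87% and 1.54% of all probe sets. Over all omissions of a single array, the response ranged from 0.45 to 0.77 and the difference from -0.60 to -0.28.

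A probe set of Rps18, 1421837_at, had the largest response of any member probe set. Rps18 encodes a protein of the head of the small subunit. The stimulated N-ras KO arrays read 0.82, -0.28 and 1.09, and the unstimulated ones 0.00, -1.54 and 0.26, so that the groups overlapped although each pair was higher after stimulation. The difference was 0.97 (standard error 0.53, unadjusted p = 0.0976, adjusted p = 1.00 in limma). With the pairs as a block the unadjusted p of this probe set was 0.0330, which made it the only member called at the thresholds of the study in that fit, where 4.91% of all probe sets were called. The other 5 probe sets of Rps18 had responses down to -0.32 in N-ras KO cells.

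The difference between the responses of WT and N-ras KO cells tests whether N-ras bears on the response itself. No member passed in limma, either at the adjusted p of 0.05 (0% of all) or at an unadjusted p under 0.05, which 586 of all probe sets (1.30%) reached. At the thresholds of the study the count was 0 of 100, against 1.29% of all probe sets, and with the pairs as a block it was again 0, against 4.12% (4.58% at the unadjusted p alone, where 0 members passed as well). The median of the genes was 0.05 log2, with 32 of 46 higher in WT, against 0.0008 and 50.1% for all genes. The member genes ranged from -0.71 for Rps27l to 0.28 for Rps6, the small subunit protein that is phosphorylated by S6 kinases. The interval lay within 1.5-fold for 25 of 100 probe sets (1.12% of all), and with the block for 64 of 100 (9.88% of all). Without the arrays WT 1 and N-ras KO 3 the median probe set difference was 0.11, again with 0 members called.

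The comparison that the study drew its genes from was stimulated WT minus stimulated N-ras KO cells. Since each genotype has its own baseline, it compares changes from the unstimulated cells of each. The error of these baselines, which the difference of responses takes in, is not in its p-values and intervals. They therefore understate the uncertainty of such a change. In limma 0 members passed the adjusted p of 0.05 (0% of all), and 2 members and 3427 of all probe sets (7.60%) had an unadjusted p under 0.05. The methods' t-test gave 1 member and 2882 probe sets, with none past the adjusted threshold. At the thresholds of the study 2 of 100 members were called against 6.90% of all probe sets. The median of the genes was 0.09 log2, against -0.02 for all genes, with 29 of 46 higher in WT, against 47.8% of all genes. The interval lay within 1.5-fold for 40 of 100 probe sets (9.70% of all).

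One of the 2 was Rpl37a, a large subunit protein, on probe set 1416218_x_at. Its stimulated WT arrays read 0.53, 0.26 and 0.92 log2, and the stimulated N-ras KO arrays 0.01, 0.01 and -0.65, without overlap. The difference was 0.78 (standard error 0.34, unadjusted p = 0.0444, adjusted p = 0.644 in limma). Leaving out the arrays WT 1 and N-ras KO 3 gave 0.58 and leaving out the 4 arrays numbered 3 gave 0.38, and neither passed the threshold of p.

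The other was Rps24, a small subunit protein, on probe set 1455195_at. Its stimulated WT arrays read 0.19, -0.38 and 0.07, and the stimulated N-ras KO arrays 0.88, 0.64 and 0.49, again without overlap. The difference was -0.71 (standard error 0.31, unadjusted p = 0.0447, adjusted p = 0.645 in limma). Leaving out the arrays WT 1 and N-ras KO 3 gave -0.92 and leaving out the arrays numbered 3 gave -0.86, and neither passed the threshold of p. The other 5 probe sets of Rps24 went up to 0.13 in this comparison. In the unstimulated N-ras KO arrays the same probe set read 1.03, -0.17 and 0.00, a range that held the stimulated values. Without the arrays WT 1 and N-ras KO 3 the members called were 1 of 100 (7.24% of all), a probe set of Rpl22 at 0.78.

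The stalk proteins and Rpsa show how the comparison depends on single arrays. Rplp0, the scaffold of the stalk and a common reference gene, read -0.25, 0.00 and 0.83 in unstimulated and -0.27, 0.18 and 0.78 in stimulated WT arrays. In N-ras KO arrays it read 0.00, 0.00 and -0.88 without and -0.09, -0.04 and -0.82 with the stimulus. The array numbered 3 was the highest of each WT group and the lowest of each N-ras KO group, while the stimulated and unstimulated arrays of a number were alike. The response was 0.04 in WT and -0.02 in N-ras KO cells (standard error 0.40 each), and stimulated WT minus N-ras KO was 0.55 (95% interval -0.33 to 1.43).

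Rplp2, the smaller stalk protein, had the same order on a smaller scale, at -0.06, 0.00 and 0.15 in unstimulated WT and 0.05, 0.00 and -0.18 in unstimulated N-ras KO arrays. Its response was 0.01 in WT and -0.02 in N-ras KO cells (standard error 0.17 each), with standard deviations between pairs of 0.03 and 0.02. Rpsa, a small subunit protein also known as the laminin receptor, had 2 probe sets. On 1448245_at the stimulated arrays read 0.12, 0.10 and 0.37 in WT and -0.10, 0.02 and -0.21 in N-ras KO, and on 1416196_at they read 0.10, 0.36 and 0.16 in WT and -0.28, -0.11 and 2.02 in N-ras KO. The array N-ras KO 3 was thus the lowest on one probe set and the highest on the other.

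Over all members the 4 arrays numbered 3 stood apart from the other arrays of their genotype. The median of the 100 probe sets was -0.16 log2 in the unstimulated and -0.12 in the stimulated array of N-ras KO 3, and 0.14 and 0.24 in those of WT 3. In the other 8 arrays the median lay between -0.04 and 0.06. In 55 of 100 member probe sets both N-ras KO 3 arrays lay below the other 4 arrays of that genotype, against 17.4% of all probe sets, and in 60 of 100 both WT 3 arrays lay above the other 4, against 17.7%. Both held for 52 probe sets of 33 genes, against 11.5% of all probe sets. The opposite arrangement, N-ras KO 3 above and WT 3 below, held for 10 probe sets of 6 genes, against 18.5% of all. Taken alone, both N-ras KO 3 arrays lay above the others in 22 member probe sets (29.7% of all) and both WT 3 arrays below in 11 (33.2%). The arrays numbered 1 lay below the others in 2 and above in 19 member probe sets in N-ras KO cells (9.16% and 6.11% of all), and below in 33 and above in 7 in WT cells (9.12% and 15.1%). For number 2 the counts were 13 and 8 in N-ras KO (12.4% and 7.83%) and 11 and 6 in WT cells (6.77% and 11.4%). No test was made of these counts, since the arrays were set apart after their values were seen.

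**Figure D2:**
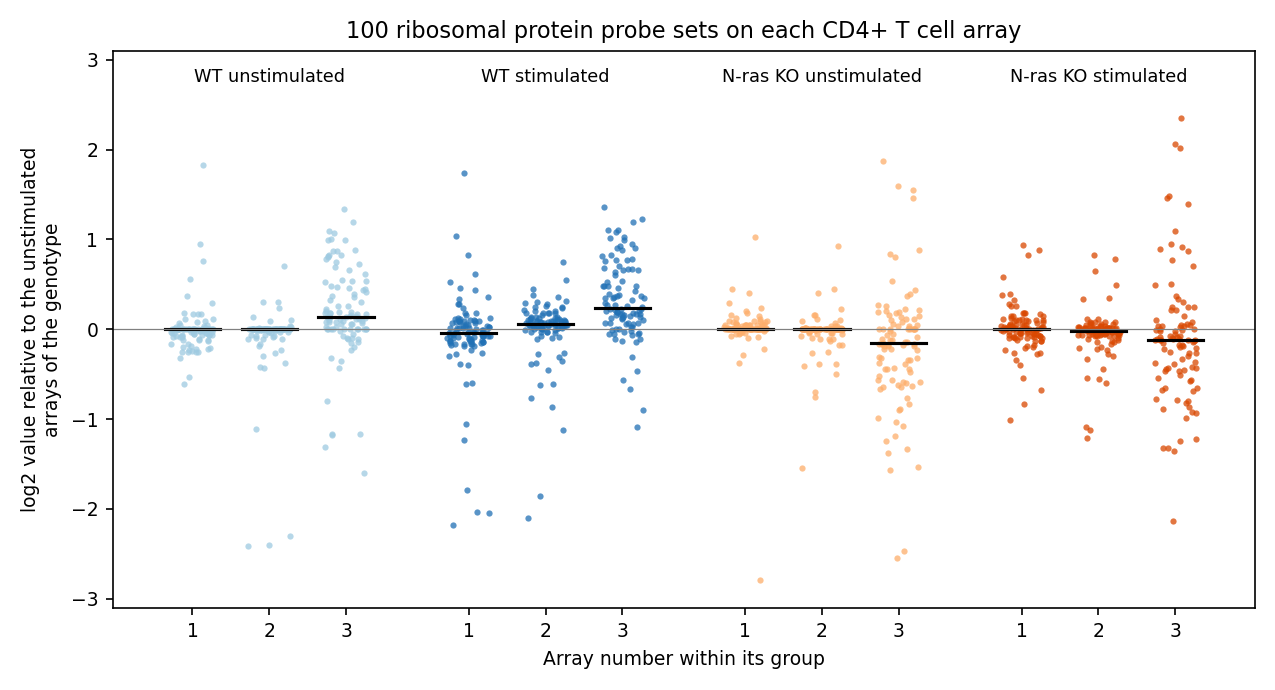
Log2 value of each of the 100 ribosomal protein probe sets (points) on each of the 12 CD4+ T-cell arrays, with the median as a bar. The arrays numbered 3 have the widest interquartile ranges, with medians of 0.14 and 0.24 in WT and -0.16 and -0.12 in N-ras KO cells.

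Rpl6, a large subunit protein, was one such case on a single probe set. It read -0.08, 0.00 and 1.19 in unstimulated and 0.09, 0.24 and 1.23 in stimulated WT arrays. In N-ras KO arrays it read 0.00, 0.00 and -1.19 without and -0.04, -0.02 and -1.32 with the stimulus. All the distance lay between the arrays numbered 3 and the others, and the stimulus moved it by 0.15 in WT and -0.06 in N-ras KO cells (standard error 0.52 each). That error leaves out the pairing, and the standard deviation between pairs was 0.10 in WT and 0.06 in N-ras KO cells. Rps28, a small subunit protein of the mRNA exit region, read 1.09 in both WT 3 arrays on probe set 1423763_x_at and -1.34 and -1.32 in the N-ras KO 3 arrays, while its other 8 values lay between -0.06 and 0.10. In stimulated WT minus N-ras KO, Rpl6 stood at 0.98 (standard error 0.52) and this probe set of Rps28 at 0.78 (standard error 0.54). Without the arrays numbered 3 the median probe set difference of that comparison was 0.03 in place of 0.10.

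The deviations of the 2 genotypes mirrored each other. Across the 100 member probe sets, the deviation of the N-ras KO 3 arrays from the other arrays of their genotype had a Pearson correlation of -0.835 with the deviation of the WT 3 arrays (Spearman -0.81). Across all 45101 probe sets it was -0.68. Number 1 gave -0.69 for the members against -0.26 for all probe sets, and number 2 gave -0.45 against -0.33. These are descriptions across probe sets, which share arrays and, within a gene, target the same mRNA. Other measures moved with the arrays numbered 3. The control probe set for the 5′ end of Actb, the beta-actin gene, read 1.45 and 1.49 in the WT 3 arrays and -1.22 and -1.64 in the N-ras KO 3 arrays, and that of Gapdh, a glycolytic enzyme, read 1.48 and 1.99 against -1.21 and -0.87. The 3′ minus 5′ difference of Gapdh was -0.71 and -0.82 in the WT 3 arrays and 0.45 and 0.48 in the N-ras KO 3 arrays. Their part in the result was not tested.

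Marker lists of other cell types were read on the same arrays as deviations from the other arrays of the genotype. B cell markers were higher on average in both sets of arrays numbered 3, with a median over 7 genes of 1.04 in N-ras KO 3 and 1.20 in WT 3. Neutrophil markers had medians over 9 genes of -0.93 and 0.37. T cell markers had medians over 10 genes of -0.49 in N-ras KO 3 and 0.56 in WT 3. The medians over 46 member genes were -0.16 and 0.25, and over all genes 0.15 and -0.17. Their part in the result was not tested, and absolute marker levels are not in these values.

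Some member genes had probe sets that went in opposite directions on these arrays. This was counted for the member genes only, with no share over other genes to set beside it. Of the 23 genes with several probe sets, 13 had probe sets on both sides of 0 in the deviation of N-ras KO 3, and 11 had them in the deviation of WT 3. Rps20, a small subunit protein of the head, showed it most plainly. On 1421935_at it read 1.87 and 2.35 in the N-ras KO 3 arrays and -1.31 and -0.47 in the WT 3 arrays, and on 1450417_a_at it read 1.60 and 2.06 against -1.16 and -0.56. On 1456373_x_at it read -0.14 and -0.11 against 0.14 and 0.20, and 1456436_x_at was similar. The first 2 thus ran against most members, and the others ran with them on a small scale.

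Rps3, which lies at the mRNA entry of the small subunit and is also known as a DNA repair factor, had 3 probe sets. On 1455600_at it read 1.55 and 1.49 in the N-ras KO 3 and -1.60 and -1.09 in the WT 3 arrays, and on 1435151_a_at -0.16 and -0.08 against 0.11 and 0.10. The remaining one, 1447563_at, leaned the way of the former on a small scale, at 0.15 and 0.04 against -0.11 and -0.30. Rpl22, a large subunit protein known for its role in T-cell development, read 1.46 and 1.39 in the N-ras KO 3 arrays on 1448398_s_at, but -0.66 and -0.46 on 1416603_at. On the former it was highest of all in the WT 1 arrays, at 1.83 and 1.74. Rps18 had the widest range in N-ras KO 3, from -1.29 on 1455572_x_at to 0.92 on 1421837_at.

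**Figure D3:**
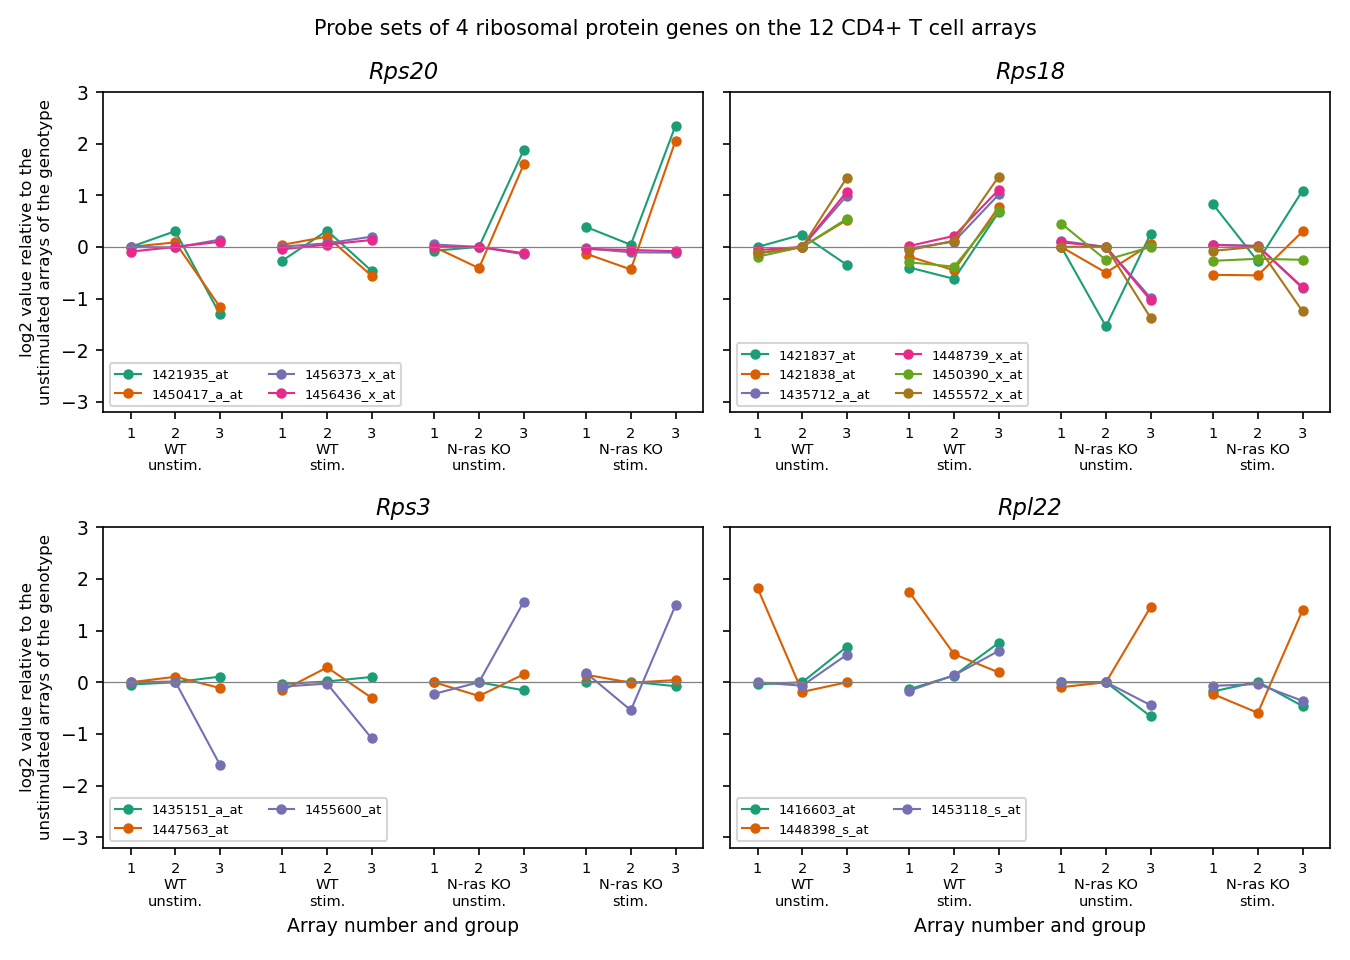
Log2 values of every probe set of Rps20, Rps18, Rps3 and Rpl22 on the 12 CD4+ T-cell arrays, with lines joining arrays 1 to 3 of a group only to guide the eye. In each gene the probe sets part on the arrays numbered 3, as with Rps20, where 1421935_at reaches 2.35 and 1456373_x_at stays at -0.11 in the stimulated array of N-ras KO 3.

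In the responses to stimulation the probe sets of 1 gene lay closer together. They were on both sides of 0 nearly as often, in 9 of 23 genes in WT and 11 in N-ras KO cells. The count was 10 in the difference of responses and 12 in stimulated WT minus N-ras KO cells. The median range within a gene was 0.12 log2 in WT and 0.12 in N-ras KO cells, against 0.65 in the deviation of N-ras KO 3. It reached 1.5-fold in 0 of 23 genes in WT and in 1 gene, Rps18, in N-ras KO cells. These counts and ranges too are for the member genes only. In WT the widest was Rps6, with 0.22 on 1416142_at and -0.34 on 1453466_at. Next was Rps10, a small subunit protein near the mRNA entry, whose probe set 1436384_at differed by 0.40 while the lowest of the other 5 stood at -0.03.

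Of the 4 paralogs, Rps27l and Rpl39l were among the members with the largest spread between replicate arrays. Rps27l, a paralog of Rps27 that p53 is known to induce, read 0.00, -2.40 and 0.15 in the unstimulated and -2.05, -2.10 and 0.88 in the stimulated WT arrays on 1435429_x_at. In N-ras KO arrays it read 0.00, 0.07 and -2.55 without and -0.27, 0.01 and -0.93 with the stimulus. The low arrays were WT 2 and N-ras KO 3 without the stimulus and WT 1 and WT 2 with it, so that both groups of both genotypes overlapped. Its other 2 probe sets had the same low arrays in WT cells. The responses on 1435429_x_at were -0.34 in WT and 0.43 in N-ras KO cells (standard error 0.99 each).

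Without the arrays numbered 3, the difference of stimulated WT minus N-ras KO cells for 1435429_x_at was -1.94 (unadjusted p = 0.0339, adjusted p = 0.363 in limma) in place of -0.69, and that of 1450925_a_at was -1.91 in place of -0.66. Both then passed the thresholds of the study, at which that fit called 5129 of all probe sets (11.4%). The parent, Rps27, a zinc finger protein of the small subunit, had 1 probe set, whose response was 0.06 in WT cells and -0.00 in the knockout (standard error 0.42 each).

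Rpl39l, the paralog of Rpl39 known from the testis, read 0.11, 0.00 and -1.17 in unstimulated and -0.17, -0.77 and -0.66 in stimulated WT arrays. In N-ras KO arrays it read -2.79, 0.00 and 0.19 without and 0.18, -1.21 and -2.13 with the stimulus, so that the pairs differed in both directions. Its response was -0.18 in WT and -0.19 in N-ras KO cells (standard error 0.80 each). Rpl39, which lines the exit tunnel of the large subunit, differed by 0.04 and -0.03 (standard error 0.17 each), with its 12 values between -0.16 and 0.27. Rps4l, a paralog of the X-linked Rps4x, differed by -0.23 in WT and -0.09 in N-ras KO cells (standard error 0.27 each). Rps4x differed by 0.03 and -0.03 on 1416276_a_at, and by 0.08 and -0.24 on 1420303_x_at.

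Between replicate arrays the members were closer together than most probe sets. The median standard deviation within groups (4 groups of 3 arrays) was 0.29 log2 for the members and 0.45 for all probe sets, and between pairs it was 0.10 against 0.40. The type of probe set went with it. The 31 members whose probes match 1 transcript (type _at) had a median of 0.46, the 26 that match several transcripts of a gene (type _a_at) 0.20, and the 40 that hold probes shared with other sequences (type _x_at) 0.16. Over all probe sets the same types stood at 0.45, 0.47 and 0.39. The 3 members of type _s_at had a median of 0.30.

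At most 0.1 was reached by 17 of 100 members, against 0.767% of all probe sets, and over 0.5 by 30, against 45.0%. The lowest were 1455485_x_at of Rpl13a (0.04), a large subunit protein and common reference gene, and 1416219_at of Rpl19 (0.04), which forms a bridge between the subunits. Next came 1433689_s_at of Rps9, a small subunit protein that helps keep decoding accurate, and 1416719_a_at of Rps10, at 0.05 each. On 1455485_x_at the 12 values of Rpl13a lay between -0.05 and 0.04, and its response was 0.02 in WT and 0.01 in N-ras KO cells (standard error 0.15 each). Another probe set of Rpl13a, 1433928_a_at, ranged from -1.05 to 0.29. The highest were the 3 probe sets of Rps27l (1.24 to 1.36), 1422128_at of Rpl14 (1.19), a large subunit protein, and 1423327_at of Rpl39l (1.09).

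**Figure D4:**
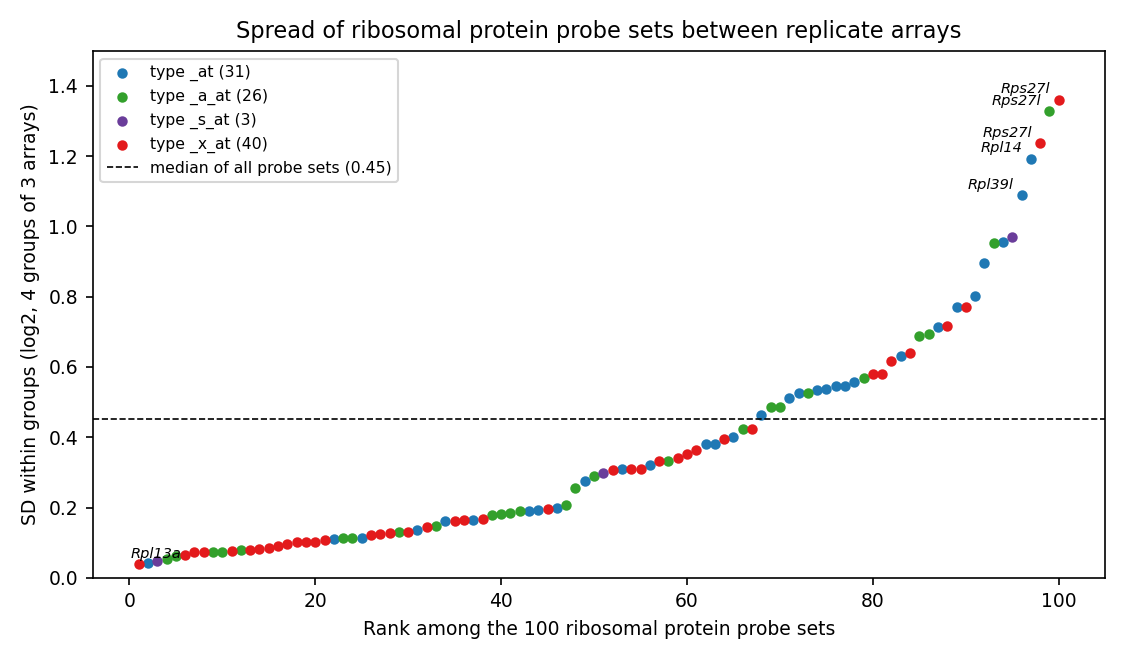
Standard deviation within groups (log2) of the 100 ribosomal protein probe sets, ranked from lowest to highest and coloured by probe set type, with the median of all probe sets (0.45) as a dashed line. The lowest ranks, at 0.04, include Rpl13a, and the 5 highest belong to Rpl39l, Rpl14 and Rps27l.

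Genes around the ribosome gave the setting. Of 36 listed translation factors 32 were on the arrays, and their median response was 0.08 log2 in WT (25 higher, 7 lower) and -0.01 in N-ras KO cells (15 higher, 17 lower), with 0 called at the thresholds of the study in either. A gene was counted as called through any of its probe sets, and 1.92% of all 18194 genes were called so in WT, 3.91% in N-ras KO cells and 2.19% in the difference of responses. In the difference of responses 1 of the 32 was called, Pabpc4, a poly(A) binding protein, higher in WT by 1.09 on 1451296_x_at. Of 21 listed regulators of TOP mRNAs and mTOR 18 were on the arrays, 8 higher and 10 lower in WT (median -0.08) and 5 higher and 13 lower in N-ras KO cells (median -0.08). In WT, 1 was called higher, Myc, a driver of ribosome biogenesis, by 1.34, and 1 lower, Tia1, a TOP mRNA binding protein, by -1.81 on 1 of its 6 probe sets, while the median of the 6 was -0.30. In N-ras KO cells the gene called was Mtor itself, at -0.99 on 1 of its 3 probe sets, with a median of -0.29. In the difference of responses the gene called was Tia1, at -2.48 on the probe set called in WT, with a median of -0.60. None of these passed an adjusted p of 0.05 in limma. Among 4 other ribosomal proteins and relatives outside the rule, Fau, which encodes a small subunit protein fused to a ubiquitin-like one, had a response of -0.00 in WT cells and 0.05 in the knockout, and Rpl22l1, a paralog of Rpl22, read 2.21 and 2.30 in the WT 3 and -2.19 and -1.99 in the N-ras KO 3 arrays. For scale, of 16 genes of T-cell activation 8 were called higher in WT (1.10% of all genes) and 6 in N-ras KO cells (1.87%) at the thresholds of the study, and their medians were 1.13 and 0.73.

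In stimulated WT minus N-ras KO cells the neutrophil markers had a median of -1.72 over 9 genes, with 8 lower, while the 46 member genes had 0.09. Of the 110 probe sets that pair a ribosomal protein gene with others, 0, 1, 2 and 3 were called at the thresholds of the study in the response in WT, the response in N-ras KO, their difference and stimulated WT minus N-ras KO, with medians of 0.05, 0.01, 0.03 and 0.09. Of all probe sets 1.04%, 2.34%, 1.29% and 6.90% were called in these comparisons. In 49 of the 110 N-ras KO 3 lay below and WT 3 above (11.5% of all probe sets), and in 22 the reverse held (18.5%).

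In thymocytes the question was whether the absence of N-ras or of H-ras changed the members without a stimulus. WT minus N-ras KO had a median of 0.00 log2 over the 96 probe sets, and 69 of them (71.9%) lay within 0.1 of 0, against 63.0% of all probe sets. WT minus H-ras KO had a median of 0.00 as well, and 80 (83.3%) lay within 0.1, against 65.9%. Both comparisons use the same WT array. Since every probe set is centred on the median of the 3 arrays, many differences are exactly 0, namely 34 of 96 against N-ras KO and 35 against H-ras KO. At least 1.5-fold was reached by 3 of 96 members against N-ras KO (2.64% of all probe sets) and by 3 against H-ras KO (2.97%), each of them higher in WT. Counting only those higher in WT, 1.09% and 1.51% of all probe sets reached it.

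The 3 probe sets belonged to Rps9, Rps20 and Rps24. Rps9 on 1426958_at read 0.77 in WT, 0.00 in N-ras KO and -0.12 in H-ras KO thymocytes, which is 1.71-fold and 1.85-fold. Rps20 on 1450417_a_at read 0.65, 0.00 and -0.53, which is 1.57-fold and 2.27-fold. Rps24 on 1455195_at read 0.68, 0.00 and -0.02, which is a difference of 0.68 and 0.70.

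The other probe sets of Rps9 and Rps24 were not higher in WT by more than 0.03 in either comparison. For Rps9 the lowest difference from N-ras KO was -0.11, on 1434624_x_at, and for Rps24 it was -0.20, on 1456628_x_at. For Rps20 the second probe set that had parted from the rest in CD4+ T-cells, 1421935_at, was higher in WT as well, by 0.41 and 0.46, while 1456373_x_at differed by -0.18 from N-ras KO. Rpl41, the shortest ribosomal protein, was next, at 0.35 and 0.35 on 1433530_at and 0.37 and 0.33 on 1454639_x_at. As medians of a gene's probe sets, 0 of 45 genes reached 1.5-fold in either comparison. With 1 array per genotype none of these differences can be set against an error.

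**Figure D5:**
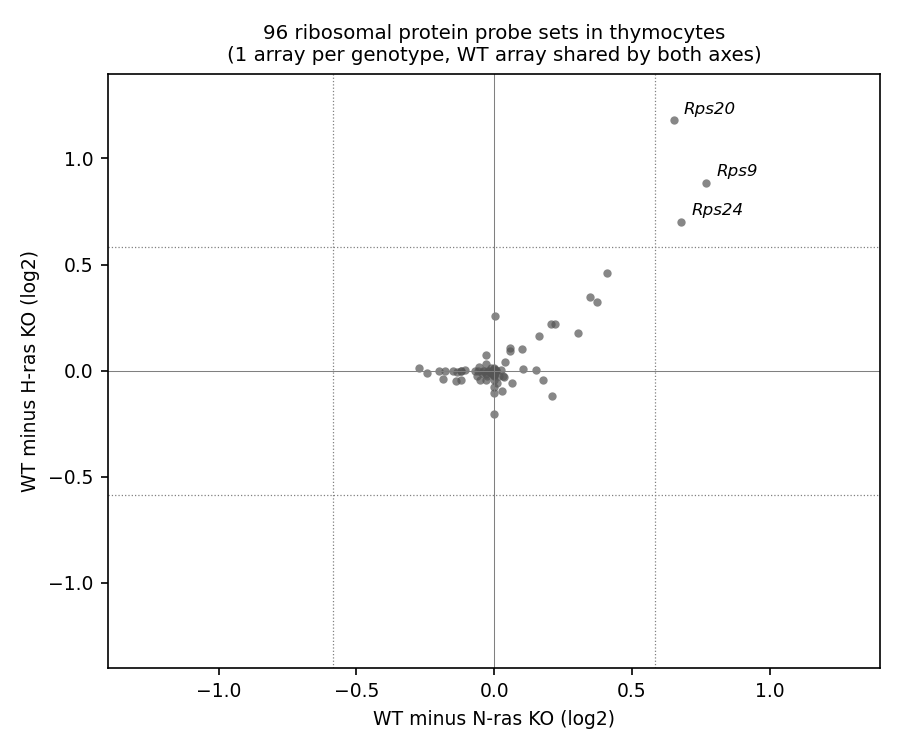
Log2 difference of WT minus N-ras KO (x axis) and WT minus H-ras KO (y axis) thymocytes for the 96 ribosomal protein probe sets, with dotted lines at 1.5-fold. Both axes use the same WT array, which by itself places points along the diagonal, and the 3 labelled probe sets of Rps9, Rps20 and Rps24 are past 1.5-fold on both.

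Markers of another cell type moved with the WT thymocyte array. Of all 12394 genes, 1.76% reached 1.5-fold in either direction against N-ras KO and 2.42% against H-ras KO. WT was higher in 4655 of all genes against N-ras KO and in 4114 against H-ras KO. The 9 neutrophil markers were all higher in WT, by a median of 1.45 (0.54 to 1.72) against N-ras KO and 1.91 (0.50 to 2.35) against H-ras KO, with 8 of 9 at least 1.5-fold in each. The 7 B cell markers had a median of 0.29 against H-ras KO, with 5 higher, 0 lower and 3 at least 1.5-fold, and of -0.19 against N-ras KO, with 2 higher and 4 lower. Of 15 T-cell activation genes the WT array was above H-ras KO in 14 (median 0.24, with 4 at least 1.5-fold) and above N-ras KO in 9 (median 0.01, with 2). The 10 T cell markers had medians of -0.13 and 0.03. Their part in the differences of Rps9, Rps20 and Rps24 was not tested, and the levels of these markers are not in the centred values.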

How the data were processed

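The series holds 12 arrays of CD4+ T-cells and 3 of thymocytes, all from Affymetrix. The deposited values are log2, which the authors made with RMA and quantile normalization in GeneSpring, setting the baseline of each probe set at the median of controls, so that brightness is lost. Probe sets were named from the platform annotation. Columns of other samples were 0.

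Over 45101 probe sets, limma 3.58.1 (R 4.3.3) fitted the 4 group means with two-sided moderated tests and Benjamini-Hochberg adjustment. Thymocytes were compared by fold only. The thresholds of the study, an unadjusted p of 0.05 and 1.5-fold, were counted beside the adjusted p. Named members were those past a threshold, the stalk proteins and Rpsa, the paralogs and their parents, the 5 lowest and 5 highest in spread, up to 4 genes a comparison whose probe sets lay farthest apart and, from other lists, up to 3 genes of smallest p. Others named, such as Rpl6, Rps28, Rpl7a and the genes at the ends of a range, were chosen after their values were seen. The members and lists were chosen with earlier results of these data known. Each array had RNA of 1 mouse per condition, and p-values measure the spread between these samples.

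The replicate numbers were taken to pair stimulated with unstimulated arrays inside a genotype. Over all probe sets their deviations from the group means correlated at 0.361, 0.394 and 0.626 (N-ras KO) and at 0.458, 0.447 and 0.738 (WT). Over the member probe sets the values were 0.107, 0.733 and 0.767 (N-ras KO) and 0.220, 0.562 and 0.802 (WT), so that the pairs numbered 1 were weak. A block by number inside genotype was therefore fitted as well. Standard errors given beside a response are those of the fit of group means, which leaves out the pairing. Alternatives were the t-test of the methods, fits of the groups compared, replicate blocks, quantile normalization, centring, array weights, other choices of probe set and leaving out arrays. The fits were tested on simulated data.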

Additional observations from a re-analysis of the deposited data

Results flagged for a closer look

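In 2 of the 100 member probe sets all 3 WT pairs were higher after stimulation and all 3 N-ras KO pairs were lower, against 2.97% of all probe sets with such opposite signs. Rpl6 on 1416546_a_at differed by 0.18, 0.24 and 0.04 log2 in the WT pairs and by -0.04, -0.02 and -0.13 in the N-ras KO pairs, and the difference of the responses was 0.21 (adjusted p = 1.00 in limma, and 0.961 with the pairs as a block). Rpl7a, a large subunit protein, on 1422613_a_at differed by 0.13, 0.11 and 0.05 in WT and by -0.01, -0.03 and -0.02 in N-ras KO pairs, with a difference of responses of 0.12 (adjusted p = 1.00 in limma, and 0.975 with the pairs as a block).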

How the results depend on the processing

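Under every alternative 0 members passed an adjusted p of 0.05 in limma or the t-test, in each of the 4 CD4+ T-cell comparisons. At the thresholds of the study, members in stimulated WT minus N-ras KO numbered 2, and 1 under the t-test, the replicate block by number, centred arrays, array weights, without _x_at and _s_at probe sets, without the arrays WT 1 and N-ras KO 3, and without the arrays numbered 3 at 1 row per gene (an alternative added after the data were seen). They numbered 0 under quantile normalization, the median per gene and 1 probe set per gene, 5 with the probe sets of several genes added, and 0 to 2 when single arrays were left out. Without the arrays numbered 3 the count was again 2, but these were probe sets of Rps27l in place of Rpl37a and Rps24. The share of all probe sets or genes called in these fits, that with the probe sets of several genes left aside, ran from 4.08% (t-test) to 11.4% (without the arrays numbered 3). It was 10.3% in the latter at 1 row per gene, 9.79% with array weights and 5.40% to 8.56% without single arrays. In the response of N-ras KO the count of 0 became 1 with the replicate block within genotype (4.91% of all), 1 with array weights (4.16%), 1 with the probe sets of several genes, and 0 to 2 without single arrays (2.08% to 3.52%). In the difference of responses it became 1 with array weights (3.63%), 2 with the probe sets of several genes, and 0 to 1 without single arrays (1.16% to 2.35%). The median response of the member genes in N-ras KO moved from -0.01 to -0.029 without the arrays WT 1 and N-ras KO 3 and also without the arrays numbered 3, and to -0.030 in the latter at 1 row per gene. Leaving out single arrays gave medians of -0.083 to 0.070 in N-ras KO, -0.047 to 0.14 in WT, -0.047 to 0.12 for the difference of responses and 0.05 to 0.18 for stimulated WT minus N-ras KO. In thymocytes the 3 probe sets at 1.5-fold became 0 against N-ras KO and 1 against H-ras KO at 2-fold, which 185 and 213 of all 22690 probe sets reached. As medians per gene they became 0 and 0 (1.76% and 2.42% of all genes). With 1 probe set per gene they became 1 and 1, for which no share over all genes is given. With the probe sets of several genes they became 6 against H-ras KO (2.97% of all probe sets). The cause was not tested. The filter on dim probe sets was not run, since the values hold no brightness. The replicate block within genotype changed no other call. Rpl37a lost its call without any 1 of 5 arrays and Rps24 without any 1 of 7, while their differences ranged from 0.55 to 0.93 and from -0.82 to -0.54.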
